A study of Homo sapiens with 14 samples.

Results

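Radioresistant U251MG cells were compared with control U251MG cells by RNA sequencing. The comparison uses 6 of the 14 samples of the series, 3 control and 3 radioresistant libraries, chosen because a single table of expression values holds them together. U251MG is an established human glioblastoma line, labelled wild type in both groups. The control cells carry only the treatment label Control and were grown in the same serum-containing medium. The radioresistant cells had been given 60 Gy of X-rays, as 30 fractions of 2 Gy each. The labels do not say whether the radioresistant cells are 1 line or several, or whether any clone was picked. Nor do they say whether the 3 libraries of a group came from separate cultures. A p-value here therefore sets the group difference against the spread of these libraries only, and that spread may be technical. The table's column codes were matched to the groups by their letters and replicate numbers. Survival after irradiation was not analysed here, and "radioresistant" is the submitters' label.

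Glioblastoma is an aggressive tumour of glial character that is treated with fractionated radiotherapy, and lines that survive repeated fractions are used to study how tumour cells tolerate radiation. Cells read their surroundings through adhesion molecules, guidance receptors, proteoglycans and the primary cilium, a single antenna built by intraflagellar transport that carries Hedgehog signals. Contractile tension and cell contacts also act on the transcriptional coactivators YAP and TAZ and on serum response factor (SRF), while membrane transporters bring in the amino acids and glucose that growth needs.

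Values are TPM, transcript shares scaled for gene length, which sum to 1000000 in each library and keep no sequencing depth, so no counting interval can be given. Of 24461 entries, 13127 reached 1 TPM in at least 3 of the 6 libraries and were tested. Between 12674 and 13016 genes reached 1 TPM in a library. Log2 values correlated (Pearson's r across genes, which are not independent) at 0.975 to 0.993 within the control group, 0.99 to 0.992 within the radioresistant group and 0.918 to 0.94 between groups. Control replicate 3 stood apart most, with an SD of its deviations from the group mean of 0.263 (log2) against 0.14 to 0.212 in the other 5 libraries. Where leaving out 1 library moved a count of list members given here by more than 1.5 times, the count without it stands in the same paragraph.

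Radioresistant cells differed from control cells across a large part of the transcriptome. On the log2(TPM + 1) scale, 5762 genes (43.9% of those tested) passed an adjusted p of 0.05 in limma with Benjamini-Hochberg adjustment. They comprised 2220 raised genes (16.9%) and 3542 lowered genes (27.0%), and "rose" and "fell" below refer to such genes only. At least 2-fold differences were found for 651 raised genes (4.96%) and 839 lowered genes (6.39%). The 3 values of each group did not overlap in 2817 genes that were higher (21.5%) and 4156 that were lower (31.7%) in radioresistant cells. A named gene said below to have no overlap was picked for its called change, so that is no separate support. The median of all tested genes was −0.11, and 38.5% of called genes were rises. Scaling by median ratios moved that median to 0.0 and called 2943 rises and 2974 falls (49.7% rises), and quantile normalization called 2761 and 3106 (47.1% rises). Small changes are therefore best read against the −0.11 shift. Changes on this scale understate those of genes near or under 1 TPM. Of 195 tested genes of the interferon, antigen presentation and astrocyte programmes, 155 rose and 12 fell; these genes are not named further unless a chromosome region or the check of the cell line holds them.

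The largest rises outside those programmes included genes of varied function. SLCO4A1, an organic anion transporter, was at 3.42, 4.38 and 6.28 TPM in control libraries and at 58.1, 61.9 and 70.3 TPM in radioresistant libraries, a log2 change of 3.53 ± 0.179 (SE; adjusted p = 2.0e-07). NT5E, the ectoenzyme CD73 that makes adenosine from AMP, was at 17, 14.8 and 11.9 TPM in control and at 124, 158 and 161 TPM in radioresistant libraries (3.26 ± 0.155, adjusted p = 1.2e-07). HMOX1, the inducible haem oxygenase that frees iron from haem, was at 19.7, 25 and 26.4 TPM against 178, 168 and 260 TPM (3.02 ± 0.175, adjusted p = 5.0e-07). In all of these the lowest radioresistant library lay far above the highest control library. HEPH, a copper-dependent ferroxidase, rose by 3.44, STEAP1, a metalloreductase family member, by 2.56, and AKR1C1, an aldo-keto reductase with close copies in the genome, by 2.56. BASP1, a membrane-bound growth cone protein, rose from 6.67 ± 0.914 to 74.7 ± 3.72 TPM (mean ± SD, n = 3; log2 change 3.31, adjusted p = 3.1e-08). The actin regulators FMNL1 and MICAL2 rose by 3.38 and 3.14. GJB2, the gap junction protein connexin 26, was at 6.49, 5.72 and 6.28 TPM in control and at 76.3, 76.6 and 50.9 TPM in radioresistant libraries (3.24). Radioresistant replicate 3 was the lowest of its group for GJB2 and HEPH, and still above every control library. TMEM158 and HES4 varied most among controls: HES4 was at 11.9, 20.7 and 40.1 TPM there and at 147, 138 and 119 TPM in radioresistant libraries (2.58 ± 0.394, adjusted p = 0.0024).

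The largest falls likewise included genes of varied function. GPM6B, a proteolipid protein of neural membranes, was at 365, 333 and 268 TPM in control libraries and at 8.01, 8.24 and 6.85 TPM in radioresistant libraries (−5.21 ± 0.138, adjusted p = 3.3e-09). CNR1, the cannabinoid receptor CB1, was at 149, 148 and 120 TPM against 4.4, 5.43 and 2.5 TPM (−4.81 ± 0.206, adjusted p = 6.3e-08). NPY1R, a neuropeptide Y receptor, was at 169, 160 and 114 TPM against 5.75, 7.01 and 4.13 TPM (−4.49). For each of them the groups were separated by more than an order of magnitude. Secreted and matrix proteins in the same range included IGFBP5, an insulin-like growth factor binding protein (−4.71), SCUBE3 (−4.85), and LOXL1, a lysyl oxidase family member (−3.15). Among receptor kinases, FGFR3 was at 33.5, 39.8 and 52.1 TPM against 1.77, 2.45 and 2.07 TPM (−3.77), and PDGFRA at 138, 127 and 97.4 TPM against 14.2, 14.7 and 8.95 TPM (−3.18). The transcriptional regulator DACH1 (−3.45) and the long noncoding RNA SOX2-OT (−3.46) were also among the 20 largest falls. PMEPA1, a negative regulator in the TGF-beta pathway, was at 198, 202 and 174 TPM against 23.5, 21.9 and 22 TPM (−3.03 ± 0.11, adjusted p = 2.1e-08).

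**Figure D1:**
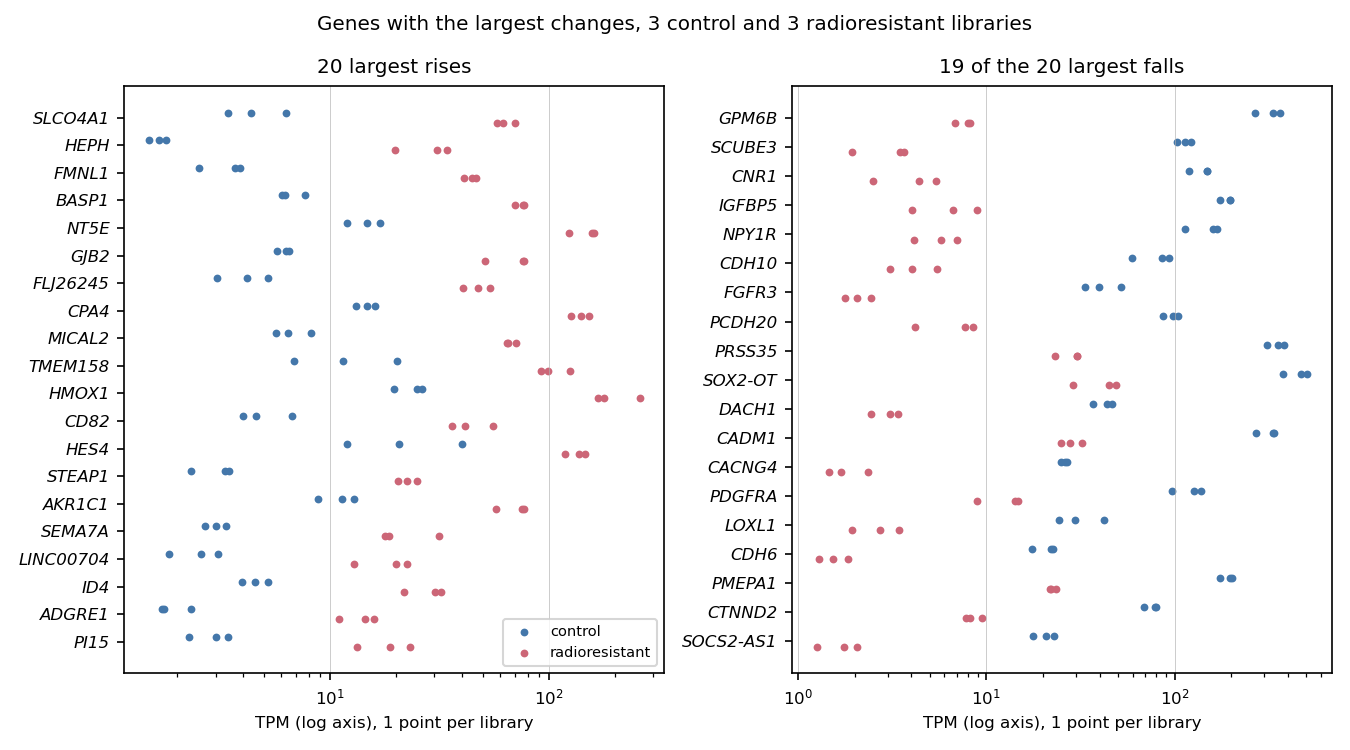
TPM (log axis) of the 20 genes with the largest rises (left) and 19 of the 20 with the largest falls (right), 1 point per library, control in blue and radioresistant in red. The blue and red points do not overlap for any of these genes, which the rule for choosing them required; SLCO4A1 goes from 3.42 to 6.28 TPM in control libraries to 58.1 to 70.3 TPM in radioresistant libraries, and GPM6B from 268 to 365 TPM to 6.85 to 8.24 TPM.

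Some genes were at or near 0 in a whole group. KLHDC8A was at 14.2, 17.4 and 14 TPM in control libraries and listed at 0 in all 3 radioresistant libraries. RHOD, a small GTPase of endosomes and actin, was at 9.11, 10.1 and 14.3 TPM and MLPH, a melanosome transport linker, at 5.84, 5.82 and 5.08 TPM, and both were listed at 0 in all 3 radioresistant libraries. In the other direction, the noncoding RNA LINC01444 was listed at 0 in every control library and was at 12.3, 17 and 11.5 TPM in radioresistant libraries. The developmental transcription factors EYA1 (0, 0.024 and 0 TPM against 12.1, 13.2 and 7.7 TPM) and FOXF1 (0.0346, 0 and 0 TPM against 6.56, 6.39 and 5.72 TPM) had the same pattern. GSPT2 and FAM101B were also near 0 in radioresistant cells. A value of 0 in a table of TPM can also be a failed estimate, so no fold is given for these genes.

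Abundant transcripts moved as well, which matters for values that are shares of a fixed sum. FTL, the ferritin light chain that stores iron, was at 5830, 6720 and 8590 TPM in control libraries and at 13500, 14200 and 14000 TPM in radioresistant libraries (1.0 ± 0.141, adjusted p = 2.8e-04). KRT81, a hair keratin with close copies, went from 348 ± 51.1 to 1570 ± 262 TPM (mean ± SD, n = 3), the chaperone HSPB1 from 1600 ± 340 to 2580 ± 155 TPM, and the autophagy receptor SQSTM1 from 672 ± 22.2 to 1360 ± 61.1 TPM. Each of these 4 rose. VIM, the intermediate filament vimentin, fell from 8820 ± 60.6 to 5640 ± 243 TPM, and TUBA1A, a neural alpha-tubulin, from 2240 ± 304 to 711 ± 134 TPM (−1.66). ATP5E, an ATP synthase subunit, fell by 0.89 on the log2 scale. ACTG1 (−0.35, adjusted p = 0.023) and the processed pseudogene RPL13AP5 (−0.47, adjusted p = 0.016) were the other large losses in TPM, and both missed the threshold under median-ratio scaling (adjusted p = 0.099 and 0.073). ACTG1 also missed it under quantile normalization (0.073) and without control replicate 1 (0.079) or 2 (0.12) or radioresistant replicate 1 (0.08) or 3 (0.057), and RPL13AP5 without control replicate 2 (0.084) or radioresistant replicate 2 (0.06). Reads from FTL, KRT81, ACTG1 and RPL13AP5 may be shared with close copies.

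The cell line's own markers and those of other cell types were read first for the label. Of 12 glioma line markers, 11 were tested. Of these 9 fell (81.8%, against 27.0% of all tested genes) and 1 rose (9.09%, against 16.9%), with a median change of −1.31. The summed level of the 12 markers was 15400 to 15700 TPM in control and 6730 to 7340 TPM in radioresistant libraries. The filament NES was at 238, 269 and 308 TPM in control and at 119, 96.2 and 112 TPM in radioresistant libraries (−1.31, adjusted p = 2.3e-05). SOX2, a neural stem cell factor, was at 347, 416 and 497 TPM against 171, 146 and 130 TPM (−1.48, adjusted p = 2.9e-05). Both stayed well expressed in each group, as did VIM and CD44. PDGFRA, also on the list, fell from a mean of 121 TPM to 12.6 TPM (−3.18). Of the 11 tested markers 2, CHI3L1 among them, were under 1 TPM in every library of 1 group. OLIG2 was under 1 TPM in every library, and EGFR did not pass the threshold. CHI3L1, the 1 rise (0 without any 1 radioresistant library), stood at 0 in every control library, with a mean of 8.35 TPM in the radioresistant group. Of 54 markers of other cell types, 40 were too low to test, and among the 14 tested 1 rose (7.14%) and 6 fell (42.9%). Without control replicate 2, 3 fell; 2 rose without control replicate 3, and 0 without control replicate 2 or any 1 radioresistant library. The leukocyte marker PTPRC averaged 0.0381 and 0.0373 TPM and the endothelial marker PECAM1 0.0182 and 0.033 TPM in control and radioresistant cells. AIF1, TYROBP and CD3E were listed at 0 in both groups. The summed level of the 54 markers was 1310 to 1490 TPM in control and 1110 to 1390 TPM in radioresistant libraries. Fibroblast markers made up most of it, at 816 to 929 TPM against 720 to 956 TPM, from COL1A2 and THY1 above all, while DCN and LUM averaged under 0.02 TPM. The endothelial cadherin CDH5 was at 7.52, 7.21 and 7.97 TPM against 0.915, 0.722 and 0.384 TPM. In a bulk library, fewer cells of a type and less RNA per cell cannot be told apart. Among 26 reference genes 2 rose (7.69%) and 8 fell (30.8%), with a median of −0.11 (−0.17 without control replicate 3). Without control replicate 2 or radioresistant replicate 1 or 3, 1 rose. GAPDH (0.06, adjusted p = 0.67) and ACTB (−0.01, adjusted p = 0.97) did not pass the threshold.

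Genes of the primary cilium held the lowest median of the whole lists compared here, the glioma line markers apart. Parts of some other lists were lower. Of 50 listed members 48 were tested and 27 fell (56.2%, against 27.0% of all tested genes), while 3 rose (6.25%, against 16.9%). The median change was −0.53 (−0.38 without radioresistant replicate 3) against −0.11. SMO, the Hedgehog signal transducer that works in the cilium, was at 17.1, 19 and 20.4 TPM in control libraries and at 2.58, 2.35 and 2.3 TPM in radioresistant libraries (−2.54 ± 0.135, adjusted p = 2.9e-07). RFX3, a transcription factor known to drive genes of cilium assembly, was at 37.0, 33.9 and 24.8 TPM against 11.5, 14.5 and 10.3 TPM (−1.32 ± 0.175, adjusted p = 1.9e-04). KIFAP3, the adaptor of the kinesin-2 motor, was at 75.1, 66.2 and 57.7 TPM against 28.7, 32.3 and 24.1 TPM (−1.2). The groups did not overlap for any of these. IFT140, a subunit of the retrograde transport complex IFT-A, fell by 1.09 on the log2 scale, and the Hedgehog receptor PTCH1 by 0.74 and the Hedgehog transcription factor GLI3 by 0.57. GLI1 and GLI2 were too low to test. IFT74 and IFT46, which belong to the anterograde complex IFT-B, fell by 0.89 and 0.65. IFT27, another IFT-B subunit, went the other way, at 7.45, 6.2 and 6.28 TPM against 19.5, 18.6 and 12.2 TPM (1.19, adjusted p = 4.3e-04); it lies on chromosome 22, described below. RFX2 rose by 0.6, and CEP164 by 0.36 (adjusted p = 0.043), a call lost in some alternative fits. SMO lies within the lowered region of chromosome 7 described below. IFT74 lies in a block of 25 neighbouring tested genes on chromosome 9, of which 15 fell (median −0.48). The blocks that hold PTCH1 and IFT46 had medians of −0.34 and −0.05. No left-out library moved the number of cilium genes that fell, or that rose, by more than 1.5 times.

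The RFX factors bind a half-site spelled GTTGCC, or GGCAAC on the other strand, and promoter windows of cilium genes were searched for these 6 letters because RFX3 itself was lowered. The windows are RefSeq's for GRCh38.p14, from 250 bases before to 50 bases after each gene's start, and 40 of the 48 tested cilium genes had one. The half-site was present in 18 of the 40 (45.0%), in 1649 of 9791 tested genes with a window (16.8%) and in 4279 of all 35116 windows (12.2%). Among cilium genes it was in 8 of the 22 that fell (36.4%) and in 10 of the 18 that did not (55.6%), so the members that fell held it no more often than the others. Among all tested genes that fell it was in 470 of 2660 (17.7%). A match describes letters in a window and is not evidence of binding. Stretches of 100 bases from the windows of 3 members that fell are printed 5′ to 3′ on the gene's strand with the half-site in capitals, to show where it sits. They are IFT74 at chr9:26946860-26946959 (plus strand), IFT46 at chr11:118566075-118566174 (minus strand) and PTCH1 at chr9:95509396-95509495 (minus strand).
IFT74: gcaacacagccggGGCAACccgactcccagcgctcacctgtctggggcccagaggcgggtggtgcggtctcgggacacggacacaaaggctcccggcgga
IFT46: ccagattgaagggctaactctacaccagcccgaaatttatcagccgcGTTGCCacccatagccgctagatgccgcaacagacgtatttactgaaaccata
PTCH1: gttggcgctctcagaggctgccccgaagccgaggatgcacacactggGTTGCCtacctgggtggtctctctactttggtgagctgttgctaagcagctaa
The half-site stands in its plain orientation in the IFT46 and PTCH1 stretches and as its reverse complement in the IFT74 stretch. The TPM values of IFT74 were 39.7, 40.6 and 25.9 in control and 18.9, 20.8 and 15.5 in radioresistant libraries, those of IFT46 18.4, 19 and 17.3 against 13.2, 12.7 and 8.29, and those of PTCH1 4.08, 4.06 and 3.94 against 1.78, 2.38 and 1.92. Every radioresistant library was below every control library for each of the 3 genes.

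Cell adhesion genes included many large falls and a smaller number of rises. Of 91 members 66 were tested, of which 32 fell (48.5%) and 14 rose (21.2%), with a median of −0.34. Among neural adhesion molecules 14 of 25 fell and 4 rose (median −0.67), and among cadherins 7 of 14 fell and 3 rose. CADM1, an immunoglobulin-domain molecule of synapses and epithelia, was at 338, 334 and 272 TPM in control and at 27.9, 32.2 and 25 TPM in radioresistant libraries (−3.43 ± 0.132, adjusted p = 3.0e-08). Its relative CADM2 was at 17.5, 17.6 and 12.2 TPM against 0.14, 0.195 and 0.149 TPM. CDH10, a classical cadherin of brain, was at 93.3, 85.7 and 59.6 TPM against 4.03, 5.48 and 3.07 TPM (−3.96). The 2 groups stood far apart in all of these. CDH6 fell by 3.09 on the log2 scale. In contrast, the cadherin CDH11, known from mesenchymal cells, was at 11, 10.2 and 8.35 TPM against 36.8, 41.7 and 36.8 TPM (1.87). L1CAM, a neural adhesion molecule, was at 0.95, 1.42 and 0.926 TPM against 9.01, 8.78 and 8.29 TPM (2.22, adjusted p = 1.9e-06). GJB2 is the largest rise of the list. Of the tested members 6, among them CADM2, FAT2 and NFASC, passed the low-value filter through 1 group only. Without radioresistant replicates 1, 2 and 3 in turn, 8, 7 and 7 members rose in place of 14, and 1 neural adhesion molecule in place of 4.

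Axon guidance genes changed in both directions. Of 55 members 44 were tested. Of these 19 fell (43.2%, against 27.0% of all tested genes) and 11 rose (25%, against 16.9%), with a median of −0.18. EPHA3, an ephrin receptor kinase, was at 367, 358 and 278 TPM in control and at 76, 83.9 and 62.7 TPM in radioresistant libraries (−2.16, adjusted p = 1.6e-06). The ephrin ligand EFNB2 was at 320, 315 and 300 TPM against 78.4, 83.9 and 74.4 TPM (−1.97, adjusted p = 2.1e-07), while EPHB2, a receptor for B-type ephrins, was at 1.22, 1.65 and 1.37 TPM against 9.15, 8.85 and 9.11 TPM (2.06). Netrin and its receptors likewise split: the ligand NTN1 fell by 2.01 and the receptor UNC5C by 2.19 on the log2 scale, and the receptor NEO1 rose from 0.401 to 6.06 TPM. SEMA3F, a secreted repellent, was at 0.318, 0.273 and 0.347 TPM against 21.7, 18.4 and 9.97 TPM, and reached the filter on its radioresistant values alone, as did NEO1. SEMA7A, a membrane-anchored semaphorin, was at 2.69, 3.01 and 3.35 TPM against 18.6, 17.8 and 31.4 TPM (2.51). Rises numbered 7 without radioresistant replicate 1 or 2, and the median was −0.34 without radioresistant replicate 1.

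Proteoglycans and hyaluronan enzymes were mostly lowered at the level of core proteins. Of 64 members 52 were tested. Of these 22 fell (42.3%, against 27.0% of all tested genes) and 9 rose (17.3%, against 16.9%), with a median of −0.26. Core proteins and hyaluronan genes held 15 of the falls among 24 tested (62.5%) and 6 of the rises, with a median of −0.77, and synthesis and sulfation enzymes held 7 falls among 28 (25%). PTPRZ1, a receptor phosphatase that carries chondroitin sulfate in glia, was at 17.4, 16.6 and 13.5 TPM in control and at 0.959, 1.42 and 0.781 TPM in radioresistant libraries (−3.04, adjusted p = 3.6e-07). HAS2, a hyaluronan synthase, was at 10.5, 10.8 and 11 TPM against 3.13, 4.03 and 3.64 TPM (−1.36), and the glypican GPC4 at 191, 187 and 145 TPM against 68.1, 77.1 and 69.6 TPM (−1.26). The groups did not overlap in these 3 genes. AGRN, the heparan sulfate proteoglycan agrin, went from 118 ± 37.9 to 258 ± 27.6 TPM (mean ± SD, n = 3; 1.16, adjusted p = 0.001), and the sulfotransferase CHST7 rose by 1.62. PTPRZ1 also lies in the lowered region of chromosome 7.

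Among target genes of YAP and TEAD, 11 of 21 rose (52.4%, against 16.9% of all tested genes) and 3 fell (14.3%, against 27.0%), with a median of 0.53. Of 14 regulators 2 rose and 3 fell. All 35 members were tested. F3, the clotting initiator tissue factor, was at 13.9, 12.8 and 10.2 TPM in control and at 43.3, 55.2 and 69.7 TPM in radioresistant libraries (2.09 ± 0.18, adjusted p = 1.0e-05). CYR61, a matricellular growth regulator, was at 233, 230 and 225 TPM against 516, 560 and 716 TPM (1.36, adjusted p = 1.8e-05), and AXL, a receptor kinase, at 126, 127 and 149 TPM against 279, 282 and 329 TPM (1.14). Every radioresistant library exceeded every control library in each. FOXF2 and IGFBP3 rose by 2.04 and 1.97 and NT5E, also a member, by 3.26. ANKRD1, another target, went the other way, at 39.4, 39.8 and 30.9 TPM against 15, 18.1 and 20.7 TPM (−1.0, adjusted p = 5.1e-04). CTGF lost its call in 10 of the 13 alternative fits. YAP1 did not pass the threshold (0.16, adjusted p = 0.28), WWTR1, which encodes TAZ, fell by 0.79 and the DNA-binding partner TEAD4 rose by 0.88. Without control replicate 3, falls in the whole list numbered 10 in place of 6 and among regulators 6 in place of 3, and without radioresistant replicate 3 the target median was 0.3.

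Actomyosin genes and SRF targets included 14 rises among 34 tested of 37 members (41.2%, against 16.9% of all tested genes). Falls numbered 4 (11.8%, against 27.0%), and the median was 0.09. SRF itself was at 18, 18.9 and 28.8 TPM in control and at 47.0, 41.4 and 51.9 TPM in radioresistant libraries (1.09, adjusted p = 7.1e-04). The focal adhesion protein ZYX was at 144, 163 and 190 TPM against 332, 330 and 391 TPM (1.09). CNN1, a smooth muscle calponin, was at 1.1, 1.11 and 1.16 TPM against 6.4, 6.32 and 7.25 TPM (1.85, adjusted p = 4.0e-06), and TAGLN rose by 1.29. The nonmuscle myosin heavy chains moved apart: MYH9 on chromosome 22 was at 410, 441 and 448 TPM against 963, 909 and 965 TPM (1.13), and MYH10 at 38.9, 38.0 and 31.3 TPM against 13.9, 15.8 and 12.9 TPM (−1.28). ACTG2, a smooth muscle actin that may share reads with other actins, was at 39.4, 48.6 and 38.0 TPM against 5.91, 6.43 and 7.24 TPM (−2.51). RHOB, an endosomal small GTPase, was at 277, 282 and 290 TPM against 85.9, 75 and 63.7 TPM (−1.92). Of the 14 rises 2 were on chromosome 22, and falls numbered 10 without control replicate 3.

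The list of growth factors, MAP kinase targets and feedback inhibitors included raised ligands and a lowered brake on receptor kinases. Of 49 members 46 were tested. Of these 19 rose (41.3%, against 16.9% of all tested genes) and 11 fell (23.9%, against 27.0%), with a median of 0.21. Ligands gave 9 rises (52.9%) and 3 falls (17.6%) among 17 tested, with a median of 0.61. In the list 3 members passed the filter through 1 group only. LIF, an interleukin-6 family cytokine, was at 11, 15 and 17.6 TPM in control and at 50, 46.7 and 53.1 TPM in radioresistant libraries (1.73, adjusted p = 1.7e-05). HBEGF, a ligand of the epidermal growth factor receptor, was at 7.62, 7.27 and 6.94 TPM against 16.3, 18.5 and 26.0 TPM (1.34), while TGFA, another ligand of that receptor, was at 36.8, 34.8 and 32.1 TPM against 10.6, 11.5 and 8.31 TPM (−1.68). FOSL1, an AP-1 subunit induced by the pathway, was at 33.4, 43.8 and 59.3 TPM against 157, 175 and 208 TPM (1.99, adjusted p = 2.0e-05). SPHK1, which makes sphingosine-1-phosphate, was at 6.72, 5.14 and 8.72 TPM against 28.1, 31.5 and 44.8 TPM (2.19). LRIG1, which restrains receptor kinases, was at 142, 147 and 135 TPM against 31.2, 30.1 and 28.4 TPM (−2.2 ± 0.105, adjusted p = 1.2e-07), and SPRED1, an inhibitor of RAS signalling in the lowered region of chromosome 15, fell by 1.42. The feedback inhibitors, LRIG1 and SPRED1 included, gave 7 rises (33.3%) and 6 falls (28.6%) among 21, with 3 falls without control replicate 2. LIF and PDGFB, both raised ligands, are on chromosome 22. Falls in the list numbered 7 without control replicate 2, and the ligand median was between 0.3 and 0.42 without any 1 radioresistant library.

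Angiogenic factors were also mixed. Of 31 members 20 were tested, and 3 of these passed the filter through 1 group. Rises numbered 9 (45.0%, against 16.9% of all tested genes) and falls 5 (25%, against 27.0%), with a median of 0.40. The sign of that median depended on every radioresistant library: it was −0.21, −0.25 and −0.1 without replicates 1, 2 and 3 of that group, and −0.29 with 1 TPM required in all 6 libraries. VEGFC, the lymphatic growth factor, was at 7.97, 6.53 and 5.39 TPM in control and at 29.5, 36.0 and 39.9 TPM in radioresistant libraries (2.25, adjusted p = 3.0e-06). VEGFA was at 58.8, 69.5 and 60.3 TPM against 131, 103 and 82.2 TPM (0.72, adjusted p = 0.0047). The stanniocalcins diverged: STC2 was at 1.97, 2.74 and 3.5 TPM against 11.2, 9.97 and 14.2 TPM (1.78), and STC1 at 145, 147 and 113 TPM against 55.8, 57.9 and 36.9 TPM (−1.43). THBS3, a thrombospondin, fell by 2.38 on the log2 scale. Without radioresistant replicate 3 the list gave 5 rises and 3 falls, and without control replicate 2 it gave 3 falls.

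The Wnt and TGF-beta pathways showed component changes in both directions. In the Wnt list 38 of 54 members were tested. Of these 14 fell (36.8%, against 27.0% of all tested genes) and 9 rose (23.7%, against 16.9%), with a median of −0.25. The receptor FZD1 was at 49.1, 51.5 and 65.2 TPM in control and at 18.1, 16.7 and 14.5 TPM in radioresistant libraries (−1.68, adjusted p = 9.6e-06), and its relative FZD2 at 17.7, 19.8 and 24.9 TPM against 38.7, 40.5 and 43 TPM (0.95). WNT5A, the ligand best known for beta-catenin-independent signalling, was at 13.2, 13.3 and 11.6 TPM against 21.8, 25 and 25.7 TPM (0.88), and its receptors ROR1 and ROR2 reached 2.27 and 2.17 TPM from under 0.3 TPM. ROR1 and ROR2 reached the filter on their radioresistant values alone. LGR4, a receptor for R-spondins, and the transcription factor TCF7L1 each fell by 0.99. In the TGF-beta list 29 of 32 members were tested, of which 11 fell (37.9%) and 5 rose (17.2%), with a median of −0.32. LTBP1, which stores latent TGF-beta in the matrix, was at 52.6, 53.7 and 44.5 TPM against 22.2, 23.5 and 20.3 TPM (−1.16). TGFB1 (−0.3, adjusted p = 0.14) and the target gene TGFBI (0.17, adjusted p = 0.23) did not pass the threshold, whereas PMEPA1, described above, had the largest fall of the list. Wnt falls numbered 9 without radioresistant replicate 3, and TGF-beta rises 3 without control replicate 2 or radioresistant replicate 2.

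**Figure D2:**
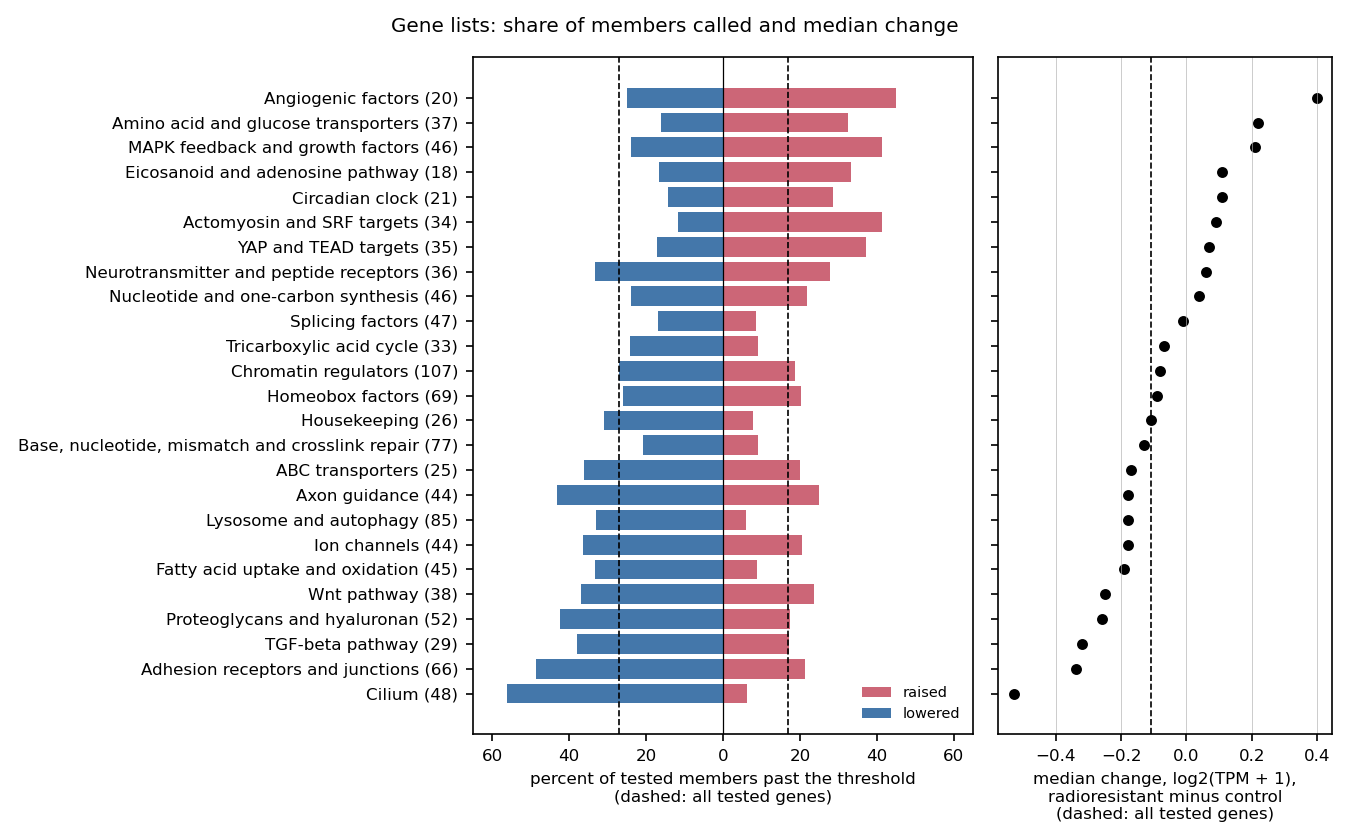
Left, percent of the tested members of each gene list that were raised (red, to the right) or lowered (blue, to the left), with the number tested in parentheses and dashed lines at the 16.9% and 27.0% of all tested genes; right, the median log2 change of each list with a dashed line at the all-gene median of −0.11. Of the lists plotted, which leave out the glioma line markers and those of other cell types, the cilium list has the lowest median. It is −0.53 (−0.38 without radioresistant replicate 3), and the list also has the largest share lowered (56.2%). The angiogenic factors have the highest median (0.40), which is −0.25 to −0.1 without any 1 radioresistant library.

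Receptors and channels of excitable cells were often too low to test and changed in both directions where tested. Of 77 neurotransmitter and peptide receptors 36 were tested, of which 12 fell (33.3%, against 27.0% of all tested genes) and 10 rose (27.8%, against 16.9%), with a median of 0.06 that was −0.07 without radioresistant replicate 2. CNR1 and NPY1R led the falls, followed by CALCRL, the receptor component for calcitonin gene-related peptide and adrenomedullin, at 36.4, 34.5 and 27.0 TPM in control and 4.53, 4.4 and 1.98 TPM in radioresistant libraries (−2.9). DRD2, a dopamine receptor, was at 0.609, 1.16 and 0.49 TPM against 4.86, 5.89 and 5.83 TPM (1.91). Of 84 ion channels 44 were tested, with 16 falls (36.4%) and 9 rises (20.5%) and a median of −0.18. The potassium channel KCNQ5 was at 4.03, 3.8 and 3.19 TPM against 10.7, 14.4 and 13 TPM (1.55), and the sodium channel SCN3A at 4.67, 4.79 and 3.67 TPM against 0.239, 0.0836 and 0.0497 TPM. Among tested receptors 3, and among tested channels 6, passed the filter through 1 group. Channel falls numbered 8 without control replicate 1 or 2, and the channel median was then −0.09 and −0.1.

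Homeobox transcription factors changed about as often as genes at large, with 69 of 96 members tested and a median of −0.09. They gave 14 rises (20.3%, against 16.9% of all tested genes) and 18 falls (26.1%, against 27.0%). MEIS2, a TALE-class partner of HOX proteins, was at 222, 228 and 194 TPM in control and at 27.0, 29.0 and 24.9 TPM in radioresistant libraries (−2.95 ± 0.115, adjusted p = 3.1e-08), and lies in the lowered region of chromosome 15. IRX3 was at 3.61, 4.37 and 6.03 TPM against 26.0, 20.4 and 16.0 TPM (1.94), and its neighbour IRX5 rose by 1.41 and MSX1 by 1.68. Of 28 tested HOX genes 4 rose (8 without control replicate 3) and 6 fell (3 without control replicate 2). Rises in the list numbered 9 without control replicate 1 or radioresistant replicate 1.

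Among metabolic genes, several amino acid transporters rose together. Of 19 tested amino acid carriers 9 rose (47.4%, against 16.9% of all tested genes), with a median of 0.36. Falls numbered 2 (10.5%, against 27.0%), and 1 without control replicate 1 or 2 or radioresistant replicate 1. In the whole transporter list 12 of 37 tested rose (32.4%) and 6 fell (16.2%). SLC3A2 and SLC7A5 encode the heavy and light chains of the large neutral amino acid carrier LAT1. SLC3A2 was at 162, 159 and 203 TPM in control and at 381, 357 and 424 TPM in radioresistant libraries (1.15 ± 0.125, adjusted p = 5.0e-05), and SLC7A5 at 56.7, 66.4 and 69.9 TPM against 132, 129 and 149 TPM (1.08 ± 0.118, adjusted p = 5.2e-05). The glutamine carrier SLC1A5 was at 151, 178 and 214 TPM against 311, 283 and 346 TPM (0.80), and the arginine carrier SLC7A1 at 42.1, 43.8 and 38.5 TPM against 71.9, 79.6 and 84.6 TPM (0.91). No value of the groups overlapped in these 4 genes. SLC6A9, a glycine carrier, rose by 0.92. SLC2A12, a glucose carrier, fell by 1.58. The median of the amino acid carriers was 0.25 without radioresistant replicate 2 and 0.26 without control replicate 3. ATF4, a transcription factor known to act on amino acid transporter genes, is on chromosome 22 and was at 329, 328 and 333 TPM against 660, 660 and 665 TPM (1.0, adjusted p = 1.7e-05).

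**Figure D3:**
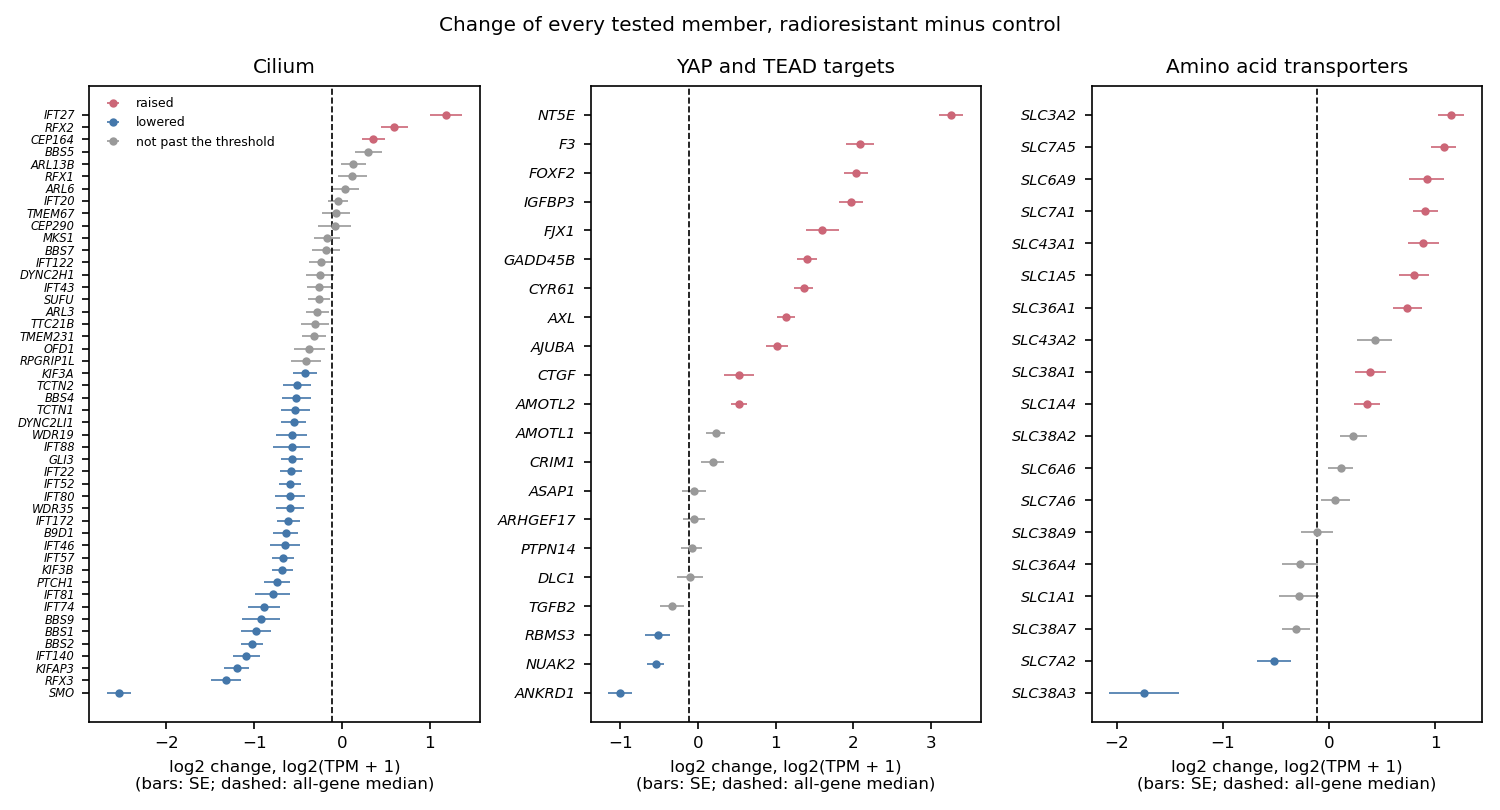
Log2 change (points) with its SE (bars) for every tested member of the cilium list (left), the targets of YAP and TEAD (middle) and the amino acid transporters (right), coloured by call, with a dashed line at the all-gene median of −0.11. SMO at −2.54 is the lowest cilium gene and IFT27 at 1.19 the highest; 11 of 21 targets and 9 of 19 transporters are raised.

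Fatty acid and mitochondrial genes rose less often than the 16.9% of all tested genes, while their shares of falls lay on either side of the 27.0% of all tested genes. Of 45 tested fatty acid genes (52 members) 15 fell (33.3%) and 4 rose (8.89%), with a median of −0.19; among 29 tested oxidation genes 10 fell and 1, PPARA on chromosome 22, rose (0 without control replicate 2 or radioresistant replicate 1 or 2, and 2 without control replicate 3). CPT1C, a brain carnitine palmitoyltransferase family member, was at 33.4, 38.2 and 42.3 TPM in control and at 14.5, 12.4 and 9.13 TPM in radioresistant libraries (−1.6), and the mitochondrial carrier UCP2 at 31.5, 29.1 and 28.5 TPM against 11.2, 13.2 and 10.6 TPM (−1.28). The groups did not overlap in either. ACSL5, an acyl-CoA synthetase, went from 0.271 to 6.82 TPM and reached the filter on its radioresistant values alone. Of 33 tested genes of the tricarboxylic acid cycle 8 fell (24.2%) and 3 rose (9.09%), with a median of −0.07. Pyruvate carboxylase, PC, was at 28.7, 31.3 and 31.8 TPM against 13.9, 12.7 and 11.1 TPM (−1.23), and mitochondrial isocitrate dehydrogenase, IDH2, fell by 1.13. Fatty acid rises numbered 0 without radioresistant replicate 1 or 2, 1 without radioresistant replicate 3 and 2 without control replicate 2, and the fatty acid median was −0.32 without radioresistant replicate 2. Rises in the cycle numbered 7 under median-ratio scaling and 5 without control replicate 3.

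Nucleotide and one-carbon genes gave 10 rises (21.7%, against 16.9% of all tested genes) and 11 falls (23.9%, against 27.0%). Of 48 members 46 were tested, with a median of 0.04. DCK, the kinase that salvages deoxycytidine and activates nucleoside drugs, was at 121, 101 and 89.4 TPM in control and at 35.6, 40.7 and 35.1 TPM in radioresistant libraries (−1.45, adjusted p = 1.6e-05). ADSL, an enzyme of purine synthesis, was at 142, 127 and 111 TPM against 236, 264 and 275 TPM (1.03, adjusted p = 7.9e-05). DCK and MTHFD2L (−1.67) lie in the lowered region of chromosome 4 and ADSL on chromosome 22. The mitochondrial folate enzyme MTHFD1L rose by 0.8 and the CTP synthase CTPS1 by 0.7. Rises numbered 6 without radioresistant replicate 3 and falls 7 without control replicate 2. In the purine salvage and adenosine group, PNP, purine nucleoside phosphorylase, was at 28.4, 23.4 and 22.3 TPM against 58.8, 73.1 and 79.8 TPM (1.47), and 3 of 6 tested adenosine genes, NT5E among them, rose and 0 fell. The whole eicosanoid and adenosine list gave 6 rises and 3 falls among 18 tested (33.3% and 16.7%), with a median of 0.11 that was 0.03 without radioresistant replicate 2.

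Lysosome and autophagy genes gave 28 falls (32.9%, against 27.0% of all tested genes) and 5 rises (5.88%, against 16.9%). Of 88 members 85 were tested, and their median was −0.18 against −0.11 for all tested genes. ASAH1, acid ceramidase, was at 186, 168 and 151 TPM in control and at 62.9, 68.3 and 53.4 TPM in radioresistant libraries (−1.44, adjusted p = 1.2e-05). The autophagosome protein GABARAP was at 1000, 1030 and 900 TPM against 439, 418 and 358 TPM (−1.27) and the lysosomal membrane receptor SCARB2 at 199, 188 and 146 TPM against 67.7, 78.4 and 59.3 TPM (−1.36). CTSD, the protease cathepsin D, was the largest rise, at 312, 351 and 455 TPM against 998, 823 and 672 TPM (1.15, adjusted p = 3.7e-04), followed by the galactosidase GLA (0.87). All these differences lay outside the range of the libraries. SCARB2 on chromosome 4 and GABARAP on chromosome 17 lie outside the lowered runs described below. The blocks of 25 genes that follow those runs were lowered to a lesser degree, with medians of −0.23 on chromosome 4 and −0.37 on chromosome 17. Under median-ratio scaling 14 members rose and under quantile normalization 11. Falls numbered 18 without control replicate 2 and 16 without radioresistant replicate 3, and rises 3 without control replicate 1 or radioresistant replicate 1.

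Repair of damaged bases, nucleotides, mismatches and crosslinks, gave few large changes. Of 77 tested members (79 listed) 7 rose (9.09%, against 16.9% of all tested genes) and 16 fell (20.8%, against 27.0%), with a median of −0.13. The translesion polymerase REV1 was at 25, 22.2 and 18.1 TPM in control and at 8.3, 11.3 and 9.1 TPM in radioresistant libraries (−1.11, adjusted p = 3.3e-04). FAN1, a nuclease of crosslink repair, was at 43.7, 42.3 and 32.9 TPM against 21.8, 25.2 and 21.4 TPM (−0.77), and lies in the lowered region of chromosome 15. FEN1, the flap endonuclease, was at 111, 108 and 125 TPM against 156, 163 and 188 TPM (0.56, adjusted p = 0.0028), and MAD2L2, a subunit of polymerase zeta, rose by 0.52. Single libraries decided these counts: falls numbered 8 or 9 without control replicate 1 or 2 or radioresistant replicate 1 or 3, and 32 without control replicate 3. Rises numbered 13 under median-ratio scaling and 3 or 4 when any library other than control replicate 3 was left out; under quantile normalization falls numbered 10.

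Chromatin regulators gave 20 rises (18.7%, against 16.9% of all tested genes) and 29 falls (27.1%, against 27.0%) among 107 tested, with a median of −0.08 (−0.16 without control replicate 3). The remodelling ATPase CHD3 was at 85.9, 97.2 and 108 TPM in control and at 49.4, 43 and 43.3 TPM in radioresistant libraries (−1.08), and the DNA methyltransferase DNMT3A at 15.7, 14.2 and 16.7 TPM against 8.64, 6.49 and 6.05 TPM (−1.05). The linker histone H1F0 was at 134, 150 and 162 TPM against 363, 289 and 242 TPM (0.98); 4 of the 20 rises, H1F0 among them, were on chromosome 22. Rises numbered 10 or 11 when control replicate 1 or 2 or radioresistant replicate 1 or 3 was left out, and falls 16, 19 and 14 without control replicate 2, radioresistant replicate 1 and radioresistant replicate 3. Splicing factors gave 4 rises (8.51%) and 8 falls (17%) among 47, both below the shares of all tested genes; single libraries moved these to between 1 and 8 rises (without radioresistant replicate 3 and control replicate 3) and to 4 or 5 falls (without control replicate 1 or 2 or radioresistant replicate 1). The neural splicing factor NOVA1 fell by 1.28, and RBFOX2, on chromosome 22, rose by 0.72. Circadian genes gave 6 rises (28.6%) and 3 falls (14.3%) among 21, with CLOCK down by 0.61 and its partner repressor CRY1 up by 0.6. ABC transporters gave 5 rises (20%) and 9 falls (36.0%) among 25, led by the lipid transporter ABCA7 (28.6, 30.3 and 35.6 TPM against 16.9, 13.9 and 8.92 TPM, −1.23); rises numbered 2 or 3 without any 1 radioresistant library and falls 5 and 4 without control replicates 1 and 2.

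Changes were also read along chromosomes, with gene positions from RefSeq GRCh38.p14, since the submitters' processing notes name hg38. A position was found for 12891 of the 13127 tested genes. Chromosome 22 stood apart: 191 of its 302 tested genes rose (63.2%) and 18 fell (5.96%), against 15.9% and 27.5% of 12589 genes on other chromosomes. The median change was 0.55 (quartiles 0.21 and 0.85), with 257 of 302 genes above 0, against −0.12 elsewhere. The next highest chromosome medians were 0.07, on chromosomes 13 and 19. Chromosome 22 held 2.34% of tested genes with a position and 8.7% of the 2195 raised ones. Without the interferon and antigen presentation genes, 183 of 291 rose (62.9%) and the median was 0.54. These regions were chosen after their values were seen, so they are described without a test. DNA copy number was not analysed here.

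The shift was present in each library and along the whole chromosome. The median deviation of chromosome 22 genes from their 6-library mean was taken relative to all tested genes (log2). It was −0.42, −0.36 and −0.21 in the control libraries and 0.37, 0.25 and 0.32 in the radioresistant libraries. The groups did not overlap, but chromosome 22 was singled out by these same values, which favours such a separation. Genes starting beyond 34.5 Mb had a median change of 0.76, a fold of 1.69, and 123 of 156 rose (78.8%). Genes starting before 34.5 Mb had a median of 0.32, and 68 of 146 rose (46.6%). The division at 34.5 Mb was set after the values were seen, and the shift did not increase steadily: of the 12 blocks of 25 genes the first had a median of 0.50, the seventh the highest (1.13) and the most distal 0.59. The shift was present at every gene size and level: by tertiles of genomic span the chromosome 22 medians were 0.51, 0.62 and 0.48 against −0.04, −0.09 and −0.21 elsewhere, and by tertiles of mean TPM 0.29, 0.54 and 0.66 against −0.15, −0.13 and −0.08. Over the 13 alternative fits the chromosome 22 median lay between 0.51 and 0.66.

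Genes of unrelated function on chromosome 22 moved together. The translation factor subunit EIF3D (chr22:36510855-36529166) was at 211, 213 and 182 TPM in control and at 480, 538 and 540 TPM in radioresistant libraries (1.36, adjusted p = 6.0e-06). XRCC6, the Ku70 subunit of double-strand break repair (chr22:41621295-41664041), was at 748, 646 and 572 TPM against 930, 1050 and 1010 TPM (0.61, adjusted p = 0.0023). LGALS1, the secreted lectin galectin-1, was at 3080, 3020 and 4050 TPM against 6530, 5380 and 6020 TPM (0.83). Each group's values stayed apart in all 3. HMOX1 (chr22:35381096-35394207) was the fifth highest change of the 302 genes, and of the tested genes within 2 places of it HMGXB4 (0.64), TOM1 (0.80) and MCM5 (0.58) rose by less and APOL6 (3.46) by more. The block of 25 tested genes with the highest median of all (1.13, 23 raised) spanned chr22:35400140-37776556 and included APOL1, APOL3, APOL6 and ELFN2 as its largest rises. ELFN2 went from 0.767 to 8.24 TPM; the APOL genes belong to the interferon programme and to a family of close copies. In the other high blocks MICALL1 rose from 53.6 to 151 TPM, POLDIP3 from 64.2 to 155 TPM and the matrix protein FBLN1 from 101 to 292 TPM (means, n = 3). Some genes did not pass the threshold, among them SREBF2 (0.19, adjusted p = 0.19), RBX1 (0.26, adjusted p = 0.14) and CHEK2 (0.29, adjusted p = 0.11).

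**Figure D4:**
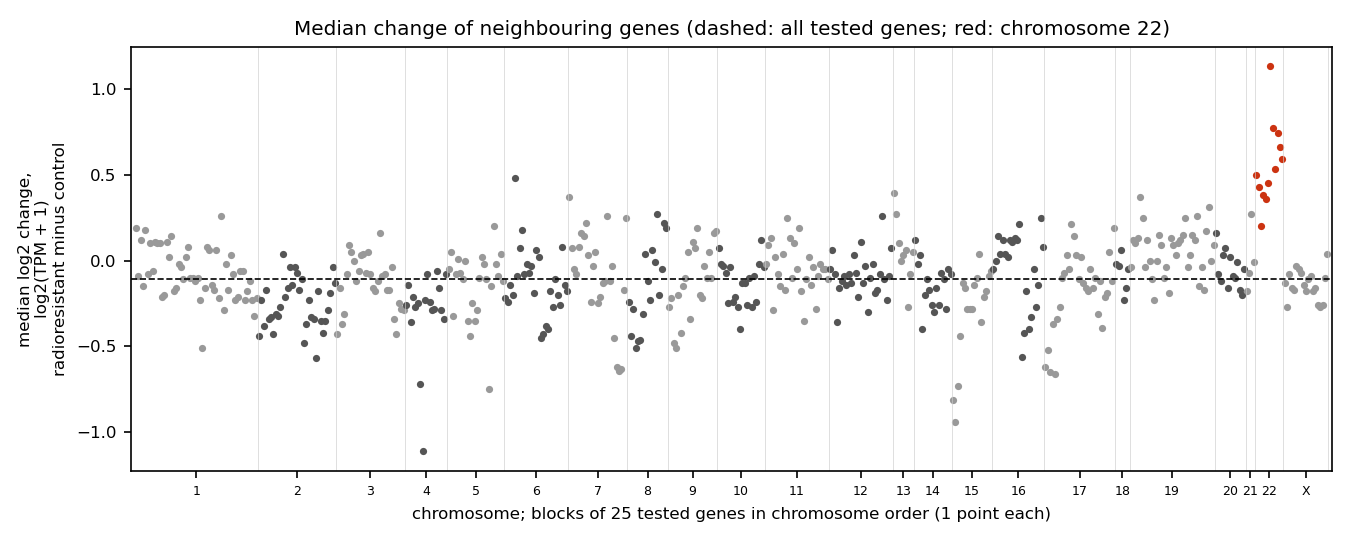
Median log2 change of each of 504 blocks of 25 neighbouring tested genes in chromosome order (1 point per block; grey shades alternate by chromosome, chromosome 22 in red), with a dashed line at the all-gene median of −0.11. All 12 blocks of chromosome 22 lie between 0.20 and 1.13, and the lowest block, at −1.11, is on chromosome 4.

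Of the 504 blocks, those of chromosome 22 included, 435 had a median within 0.3 of the all-block median, and some of the others lay side by side. On chromosome 4, the adjacent blocks spanning chr4:53459301-76148397 held 50 tested genes, of which 41 fell (82.0%) and 1 rose, with a median of −1.01. PDGFRA and DCK are in that span, as are RUFY3 (41.8 to 10.5 TPM) and MOB1B (26.1 to 7.98 TPM). The proximal long arm of chromosome 15, chr15:20408396-42273584, held 100 tested genes, of which 71 fell and 6 rose, with a median of −0.74. Some of these entries, such as HERC2P2, HERC2P3, WHAMMP1, WHAMMP2, GOLGA8A and GOLGA8B, belong to families of close copies, so their reads may be shared. Genes starting beyond 42.3 Mb on the same chromosome had a median of −0.18. MEIS2, SPRED1 and FAN1 are in the lowered part, with MTMR10 (32.7 to 9.26 TPM), KLF13 (25.9 to 8.89 TPM) and SNURF (278 to 44.7 TPM, −2.61), an imprinted transcript that overlaps a neighbouring gene, so its reads may be shared. Lowered runs were also found at chr7:108147649-140641460 (69 of 100 fell, median −0.56), chr17:212389-5501006 (53 of 75, −0.56) and chr8:26383054-42897299 (42 of 75, −0.47). A run was at least 3 adjacent blocks, each 0.3 or more from the all-block median on the same side. The 2 blocks of chromosome 4 were added after they were seen. The next blocks of chromosome 17, to 16653850, had medians of −0.37, −0.66, −0.34 and −0.27, so the fall went on past that run. On chromosome 5 the block chr5:141192353-141682230, which is the clustered protocadherin locus, had 16 falls among 25 and a median of −0.75, with PCDHB10 at 15.1 and 2.75 TPM; the median was −0.46, −0.45 and −0.45 without control replicates 1, 2 and 3. Protocadherins are near-identical copies that share exons, so their values are uncertain. Over the alternative fits the medians stayed at −0.89 to −1.08 on chromosome 4, −0.62 to −0.81 on chromosome 15, −0.45 to −0.62 on chromosome 7, −0.46 to −0.61 on chromosome 17 and −0.37 to −0.53 on chromosome 8.

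The level of each region separated the groups, but the regions were chosen by these same values, which favours such a separation. In the chromosome 15 run the median deviations were 0.37, 0.31 and 0.3 in control libraries and −0.28, −0.33 and −0.32 in radioresistant libraries, and in the chromosome 4 run 0.48, 0.47 and 0.26 against −0.49, −0.36 and −0.44. The chromosome 7, 17 and 8 runs also had all control libraries above 0.1 and all radioresistant libraries below −0.1. Control replicate 3 was the control library nearest to the radioresistant libraries on chromosome 22 and in the runs on chromosomes 4, 7, 8 and 15; in the chromosome 17 run, at 0.13, 0.2 and 0.31 in control replicates 1, 2 and 3, it was the farthest.

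**Figure D5:**
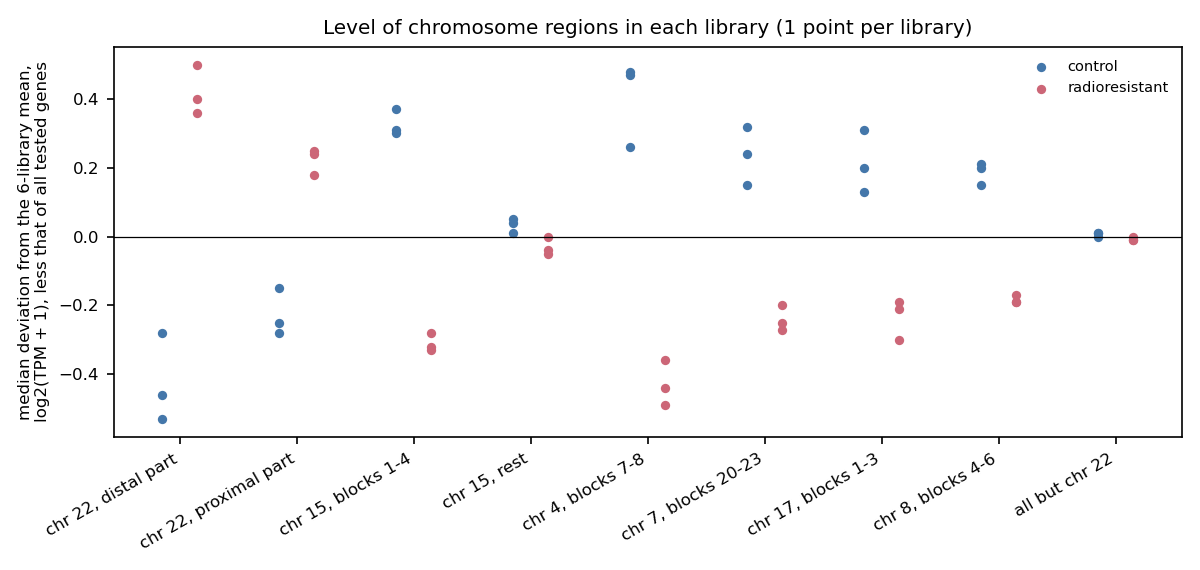
Median deviation of a region's genes from their 6-library mean on the log2(TPM + 1) scale, less that of all tested genes, 1 point per library (control blue, radioresistant red). The regions were chosen by these same values, which favours a separation of the groups. Control points are below radioresistant points in both parts of chromosome 22 and above them in the runs on chromosomes 15, 4, 7, 17 and 8. The last column holds all genes off chromosome 22, the lowered runs included, and stays within 0.01 of 0. These are most of the genes whose median is subtracted, so the column lies near 0 by construction.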

How the data were processed

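RNA from U251MG cells was sequenced from poly(A) libraries, and the deposited table holds TPM for 24489 entries in 6 libraries, 3 per group. Per the submitters' processing notes, Trim Galore 0.6.6, TopHat, Cufflinks 2.2.1, featureCounts and hg38 were used; the labels give neither their order nor whether counting used strand, so antisense and overlapping genes cannot be told apart. The deposited values sum to 1000000 TPM in each library, so depth is unknown. In 28 entries the symbol had become a date; they were left out (0.115 to 0.19% of TPM). Genes at 1 TPM or more in at least 3 of 6 libraries were tested on the log2(TPM + 1) scale with limma 3.58.1 (R 4.3.3), with trend and robust moderation, and p-values were Benjamini-Hochberg adjusted over all 13127 genes (threshold 0.05). An exact permutation test with 3 against 3 cannot reach that threshold. The fit was tested on simulated data.

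Members and gene lists were chosen with earlier results of these data known. Named genes were the 20 largest rises and falls among called genes at 1 TPM or more in all 6 libraries, at least 2-fold and without overlap, outside the interferon, antigen presentation and astrocyte programmes. To these were added genes under 0.1 TPM in 1 group and at 5 TPM or more in the other, the 5 largest gains and losses in TPM, up to 4 called members of each list in each direction, and up to 4 called genes of the 4 highest and 4 lowest blocks of 25 genes. Other genes, such as CYR61, AXL, ZYX, HBEGF, CDH11, EFNB2, SLC1A5, SLC7A1, VEGFA, IFT74, IFT46, PTCH1, GLI3, LGR4 and those given for chromosome 22, were chosen after their values were seen. Alternatives were another pseudocount (0.25), other filters, median-ratio scaling, quantile normalization, variance moderation without trend or robust options, a replicate block and leaving out each library. The hairpin RNA libraries and the chromatin accessibility samples were not used here. A few genes that the naming rule selects are not reported here.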

Additional observations from a re-analysis of the deposited data

How the results depend on the processing

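Leaving out 1 library at a time gave 1494 to 2743 raised and 2237 to 4395 lowered genes; the lowest number lowered came without control replicate 2, the one count of all genes that moved by over 1.5 times. Other fits gave 2194 and 3526 with a pseudocount of 0.25, 2141 and 3457 without trend or robust moderation, 1906 and 3167 with 1 TPM required in all 6 libraries, and 2329 and 3537 among 19305 genes without a filter. A gene that reached the filter on 1 group alone is not tested when a library of that group is left out, which lowers the counts of lists that hold such genes. Of 673 genes checked, 0 reversed, 88 lost the call in any of 7 other fits and 166 without any 1 library. Deviations of same-numbered libraries from their group means correlated at r = −0.38, 0.24 and 0.081, and those of other pairs at −0.43 to 0.39. Deviations sum to 0 within a group, so these values constrain each other and cannot decide whether the numbers pair the libraries. With the replicate number as a block 2110 genes were raised and 3462 lowered. The chromosome and region alternatives were chosen after seeing the data. TPM keeps no depth, so what depth limits cannot be said.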
